A study of Mus musculus with 60 samples.

Results

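The genes described here kept a strong daily rhythm with a nighttime peak in the kidney after Bmal1 had been deleted in the renal tubule. They were chosen by a rule on measured values: CPM (the count of a gene scaled to the total of all gene counts) of at least 2 on average, and a cosine of 24 h fitted to log2(CPM + 0.5) of the 30 mice of each genotype. The peak-to-trough amplitude had to be at least 0.6 on the log2 scale and the R2 of the cosine at least 0.3 in both genotypes. The amplitude in cKOt mice had to lie between 0.7 and 1.43 times that in control mice, the 2 peaks had to be within 2 h, and the control peak had to fall from ZT14 to ZT2 (ZT, zeitgeber time in hours after lights on). The rule was met by 39 genes, out of 12551 genes that averaged 2 CPM or more and 55335 genes counted. A further 69 genes met it in all respects except that the control peak fell outside this window.

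RNA-seq libraries came from the kidneys of 60 male C57BL/6J mice. The mice were kept in 12 h of light and 12 h of darkness with food at all times. At each of 6 time points, 4 h apart, 6 control and 6 cKOt mice were killed, and 5 of each were kept for analysis. The study chose these 5 by RNA quality and by distance from the other replicates. The cKOt mice carried Bmal1lox/lox together with Pax8-rtTA and LC-1 Cre, which delete Bmal1 in cells of the renal tubule upon doxycycline. Control mice were Bmal1lox/lox littermates. All mice of both genotypes received doxycycline (2 mg/ml, with 20 mg/ml sucrose) for 2 weeks from the age of 8 weeks, and the kidneys were taken 4 weeks later. The transgenes target tubule cells, so that the clocks of other kidney cells and other organs were not targeted. The p-values of the genotype comparison rest on the spread between the mice kept that remains after 2 factors of unwanted variation (RUVs). These factors were estimated from the same mice. The choice of 5 mice may have narrowed this spread as well. The p-values of correlations come from permutations of mice within groups.

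Between 17791420 and 20906706 counts fell on genes in each of the libraries. Arntl (the gene symbol of Bmal1) ranged from 2.73 ± 0.824 CPM (SD, n = 5) at ZT8 to 48.4 ± 10.2 CPM at ZT0 in control mice, and from 17.4 ± 2.01 CPM at ZT12 to 24.4 ± 1.56 CPM at ZT0 in cKOt mice. The counts cover the whole gene and do not separate the deleted part from the rest. The labels name the renal tubule, whereas the methods describe pieces of frozen kidney cut across, and the libraries held markers of glomerulus and endothelium beside those of the tubule. Podocyte markers summed to 300.1 to 436 CPM in control and 310.4 to 411 CPM in cKOt mice, and endothelial markers to 455 to 597 CPM and 431 to 583 CPM. In such bulk samples, fewer cells of a type and less RNA per cell cannot be told apart.

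Rhythms in a tissue come from the clocks of its own cells and from signals of the whole animal, such as feeding, body temperature, and hormones. Several classes of genes are known to follow such signals. Secretory and membrane proteins fold in the endoplasmic reticulum (ER) with the help of resident chaperones, and when unfolded proteins accumulate there, the transcription factors ATF6 and XBP1 induce the genes of these chaperones through an ER stress response element. Chaperones of the cytosol are induced through heat shock elements by the factor HSF1. Genes of fatty acid synthesis are controlled by SREBP factors, which respond to insulin.

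Most of the 39 genes peaked in the second part of the night. In control mice, the cosine peaked from ZT18 to ZT22 in 28 genes, from ZT22 to ZT2 in 9, and from ZT14 to ZT18 in 2. The median amplitude was 0.79 in control and 0.82 in cKOt mice, and the ratio of the amplitudes ranged from 0.74 to 1.41 (median 1.05), within the limits of the rule. The peak was earlier in cKOt mice in 28 genes and later in 11, with a median shift of -0.49 h. These values chose the genes and are given as a description without a test.

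**Figure D1:**
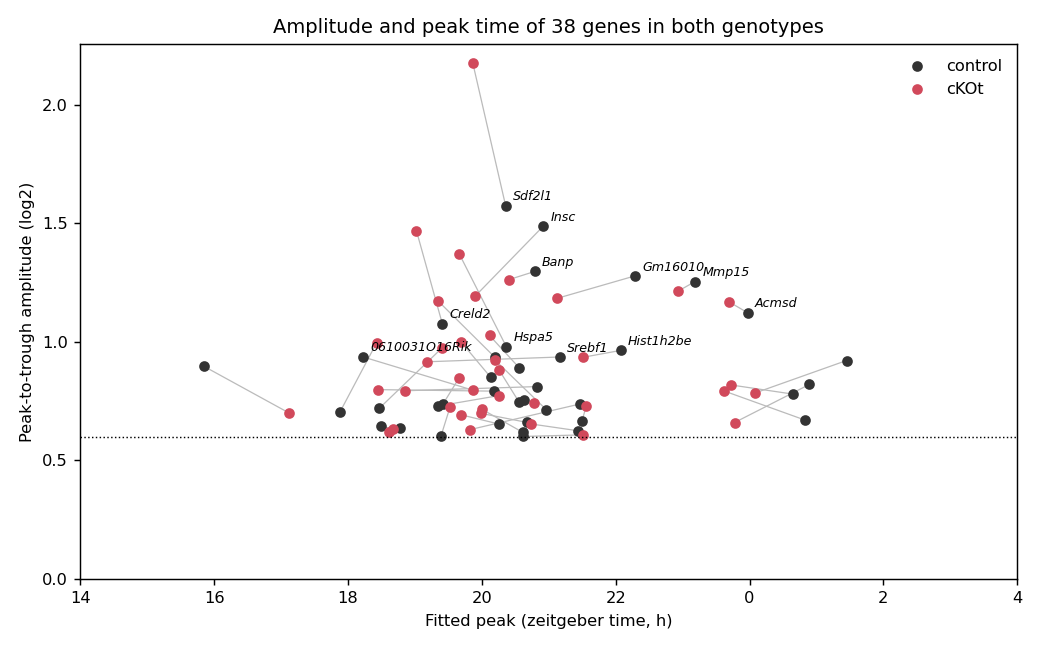
Peak-to-trough amplitude (log2, vertical axis) against fitted peak time (horizontal axis, h) of 38 of the genes in control (black) and cKOt mice (red), with a line joining both values of a gene and 11 of the genes of largest control amplitude named. The dotted line marks the limit of 0.6, and most points lie between ZT18 and ZT22 in both genotypes.

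The trough fell at the end of the light phase for most genes. On TMM-scaled CPM, which are used for all levels below, the lowest of the 6 time points was ZT12 for 24 of 39 genes in control and 21 in cKOt mice. The highest was ZT16 for 12, ZT20 for 12, and ZT0 for 13 genes in control mice, and ZT16 for 16, ZT20 for 16, and ZT0 for 7 genes in cKOt mice. The ratio of the highest to the lowest time point ranged from 1.54 to 4.98 in control and from 1.55 to 7.91 in cKOt mice. In 34 of 39 genes of either genotype all 5 mice of the highest time point lay above all 5 of the lowest, compared with 29.0% of genes with at least 2 CPM in control and 29.3% in cKOt mice. The rule used this contrast. A 24 h component made up a median of 80.4% of the variance among time points in control and 82.3% in cKOt mice, and a 12 h component 6.69% and 9.62%. In a model selection between genotypes (the 5 models of dryR, with a weight of at least 0.65), 38 of 39 genes were assigned to the model of equal rhythms, as were 25.2% of all genes, and Unc5c was left unassigned. The selection rests on the same rhythms as the rule.

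The genes lay on 19 chromosomes, and no 2 of them on the same chromosome were closer than 3.22 Mb. Of the 39, 35 were protein-coding and 4 noncoding (the antisense transcripts Gm16010, 0610031O16Rik, and Gm42067, and the lincRNA Gm15348). The strand setting of the counting is not given in the sources used here, so reads of an antisense transcript and its partner may not be told apart. This applies to Gm16010, which overlaps 2878 bases of Spsb4 (25.5 CPM, control amplitude 0.67, peak ZT23.3), to 0610031O16Rik, which overlaps 15623 bases of Adh7 (0.513 CPM), to Gm42067, which overlaps 189 bases of Dpf2 (42.5 CPM), and to Ahsa2, which overlaps 2679 bases of Usp34 (195 CPM) on the opposite strand.

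For each limit of the rule, the gene just inside and the gene that missed this limit alone by the least were as follows. Gm15348 was the gene closest to both amplitude limits (0.60 in control and 0.61 in cKOt mice), and the heat shock protein gene Hspa4l missed the control limit at 0.58, as Cftr missed that of cKOt mice at 0.52. For R2, Hsph1 (0.33) and Slc37a2 (0.25) were closest in control mice, and Vgll3 (0.33) and the fatty acid synthase gene Fasn (0.21) in cKOt mice. For the ratio of amplitudes, Msmo1 (0.66) missed the lower limit by the least, and Gldc (1.41) and Dynll1 (1.496) were closest to the upper. For the shift, these were Srebf1 (1.99 h) and Ptpru (2.18 h), and for the mean level Hist1h2be (2.11 CPM) and Cabp1 (1.74 CPM). At the ends of the window, Fkbp5 and Tril (peaks 1.85 h and 11.4 h after ZT14) lay inside, and Serpini1 (0.961 h before ZT14) and Hist1h1c (12.5 h after it) outside.

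ER chaperones were the largest group. Of 29 genes listed for ER folding and the unfolded protein response, 7 were among the 39: Hspa5 (BiP, the main ER chaperone of the HSP70 family), Hsp90b1 (its HSP90 counterpart, GRP94), Hyou1 (a nucleotide exchange factor for BiP), Calr (calreticulin, which binds glycoproteins), Pdia6 (a disulfide isomerase), Sdf2l1 (a partner of ER chaperones), and Creld2 (a secreted protein induced by ER stress). Sequences upstream of 6 of them were held in the reference (RefSeq, GRCm38.p6; 250 bases before and 50 after each start), and the element known from their regulation was searched as CCAAT followed, 9 bases on, by CCACG, on both strands. It was found in Hspa5, Hsp90b1, Creld2, Calr, and Pdia6, which makes 5 of the 30 genes with a sequence, while 37 of 27025 genes in the reference (0.137%) held it. The search for this element was added after the sequences had been seen.

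The stretches are shown 5′ to 3′ because they carry this element, up to the first base of the gene in GENCODE or, for Hspa5, as the element with its flanks. Capitals mark CCAAT on either strand (ATTGG when read on the strand shown) and the whole element, which contains such a box. Sdf2l1 is shown for comparison as the member of the group with 3 CCAAT boxes in the window but no complete element.
Hspa5, chr2:34772020-34772049, plus strand: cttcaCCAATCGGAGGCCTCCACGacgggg
Hsp90b1, chr10:86705510-86705694, minus strand: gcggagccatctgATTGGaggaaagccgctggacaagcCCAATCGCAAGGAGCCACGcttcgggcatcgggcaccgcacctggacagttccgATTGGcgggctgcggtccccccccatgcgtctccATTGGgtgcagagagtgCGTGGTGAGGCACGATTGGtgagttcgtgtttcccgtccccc
Creld2, chr15:88819396-88819645, plus strand: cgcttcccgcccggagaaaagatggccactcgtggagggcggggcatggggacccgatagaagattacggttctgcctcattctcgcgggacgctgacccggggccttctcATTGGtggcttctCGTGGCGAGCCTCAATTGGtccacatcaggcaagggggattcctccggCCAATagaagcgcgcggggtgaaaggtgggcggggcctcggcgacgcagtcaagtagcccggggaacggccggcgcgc
Calr, chr8:84846935-84847181, minus strand: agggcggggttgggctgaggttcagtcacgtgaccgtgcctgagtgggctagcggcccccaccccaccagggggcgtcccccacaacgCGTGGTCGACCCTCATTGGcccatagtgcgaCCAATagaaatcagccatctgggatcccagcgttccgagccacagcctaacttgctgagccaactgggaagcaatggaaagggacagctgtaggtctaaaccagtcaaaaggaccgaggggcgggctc
Pdia6, chr12:17266339-17266544, plus strand: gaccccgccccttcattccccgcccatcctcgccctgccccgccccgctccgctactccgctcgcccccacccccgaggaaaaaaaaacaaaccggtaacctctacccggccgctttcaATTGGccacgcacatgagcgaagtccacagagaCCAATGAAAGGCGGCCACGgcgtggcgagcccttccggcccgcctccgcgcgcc
Sdf2l1, chr16:17132384-17132633, minus strand: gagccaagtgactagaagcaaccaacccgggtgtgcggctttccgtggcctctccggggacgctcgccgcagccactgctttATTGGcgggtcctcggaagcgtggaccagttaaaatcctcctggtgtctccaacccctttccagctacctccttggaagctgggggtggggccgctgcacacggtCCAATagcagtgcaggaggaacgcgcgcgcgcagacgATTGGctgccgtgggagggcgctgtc

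CCAAT itself was present near the start of 17 of 30 genes, compared with 41.1% of all genes in the reference, and of all 6 ER genes. TGACGTG, an unfolded protein response element, was found in Hspa5 only (2.22% of all genes). These matches are descriptions of letters and not of bound sites.

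Sdf2l1 had the largest amplitude of the 39 genes, 1.57 in control and 2.18 in cKOt mice. At ZT12, its level was 3.31, 4.36, 2.92, 2.70 and 2.08 CPM in the control mice and 2.60, 1.98, 2.38, 1.54 and 1.32 CPM in the cKOt mice. At ZT16, it was 17.3, 12.6, 9.17, 15.2 and 22.2 CPM in control and 15.0, 19.4, 17.8, 9.73 and 15.8 CPM in cKOt mice. All mice of ZT16 thus lay above all mice of ZT12 in both genotypes, whereas control and cKOt mice overlapped at both times.

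Hspa5 followed the same course at a much higher level. Its levels were 361, 579, 427, 445 and 331 CPM at ZT12 and 909, 902, 820.0, 917 and 1195 CPM at ZT16 in control mice. In cKOt mice, they were 343, 334, 361, 309 and 332 CPM at ZT12 and 904, 1111, 999, 690.2 and 882 CPM at ZT16. By ZT4, they were down to 409 to 663 CPM in control and 368 to 450.3 CPM in cKOt mice. The fitted peak lay at ZT20.4 in control and ZT19.7 in cKOt mice.

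Creld2 rose from 17.5 to 33.5 CPM at ZT12 to 48.8 to 75.9 CPM at ZT16 in control mice and from 14.4 to 21.4 CPM to 35.6 to 70.2 CPM in cKOt mice, with amplitudes of 1.08 and 1.47. Hyou1 reached 174 to 272 CPM at ZT16 in control and 148 to 248 CPM in cKOt mice, from 75.0 to 112 CPM and 59.6 to 79.9 CPM at ZT12. Hsp90b1, Calr, and Pdia6 had smaller amplitudes, from 0.63 to 0.75 in control and from 0.65 to 0.88 in cKOt mice, and peaked between ZT20.3 and ZT21.6. The amplitude was larger in cKOt than in control mice for all 7 ER genes. The rule used both amplitudes and their ratio, so this is a description only. Manf, of the same list, missed the rule by its ratio of 1.65 alone. Among the other listed genes, the amplitude was smaller in cKOt mice for Herpud1 (0.56 in control, 0.26 in cKOt) and Ppp1r15a (0.29, 0.06). The same held for Dnajc3 (0.39, 0.37) and Atf4 (0.36, 0.30), and the rest had a larger amplitude in cKOt mice. The 7 were chosen for a control peak between ZT14 and ZT2. Of the other 20 genes of the list with at least 2 CPM, 17 had their control peak in this window, compared with 44.0% of all 12551 genes. A peak is fitted to every gene, rhythmic or not. Among the 17, the control R2 was below the limit of the rule in Xbp1 (0.03), Ern1 (0.04), Derl1 (0.06), and Ddit3 (0.07). So it was in Sec61a1 (0.11), Dnajb9 (0.12), Sec61b (0.18), and Syvn1 (0.24), and the rest reached the limit. A high share was not particular to ER genes. Outside the chosen genes, it was 21 of 22 for listed heat shock chaperones and 5 of 15 for glucocorticoid-responsive genes.

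The cytosolic chaperones among the 39 were Hsp90aa1 (the inducible HSP90), its cochaperones Chordc1 and Ahsa2, and Hsph1 (HSP110, a nucleotide exchange factor of HSP70), out of 26 genes listed. Hsp90aa1 stood at 146, 245, 164, 167 and 149.8 CPM at ZT12 and 313, 326, 277, 404 and 301 CPM at ZT16 in control mice. In cKOt mice, the levels were 142, 137, 158, 129.9 and 141 CPM and 256, 268, 246, 231 and 231 CPM. The cKOt mice lay below the control mice without overlap at ZT8 and ZT16, and the cosine accounted for more of the variance in cKOt (R2 0.83) than in control mice (R2 0.52). Hsph1 ranged from 110.3 to 244 CPM at ZT4 to 291 to 357 CPM at ZT16 in control and from 96.5 to 114 CPM to 177 to 230.2 CPM in cKOt mice. One control mouse at ZT12 had 355 CPM of Hsph1, against 173 to 208 CPM in the other 4 mice. Amplitudes of Chordc1 and Ahsa2 were 0.74 and 0.60 in control and 0.85 and 0.73 in cKOt mice. The letters GAANNTTC or TTCNNGAA, the parts of a heat shock element, were found near the start of Chordc1 and Hsph1 (both motifs), and the first also in Gm16010 and Mkks, which makes 4 and 2 of 30 genes, compared with 9.04% and 9.6% of all genes.

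Genes of fatty acid synthesis were Srebf1 (the SREBP1 factor itself) and Scd2 (a fatty acid desaturase). Srebf1 reached 74.4, 39.96, 37.9, 40.4 and 38.7 CPM at ZT16 in control and 48.0, 26.7, 32.3, 40.4 and 32.9 CPM in cKOt mice, from 12.9 to 23.4 CPM and 11.4 to 23.9 CPM at ZT12. Scd2 had amplitudes of 0.79 and 0.80. TCACNCCAC, a sterol regulatory element, was found in 2 of 30 genes (Adamts1 and Hsp90b1), compared with 1.44% of all genes, and Scd2 had no sequence in the reference.

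**Figure D2:**
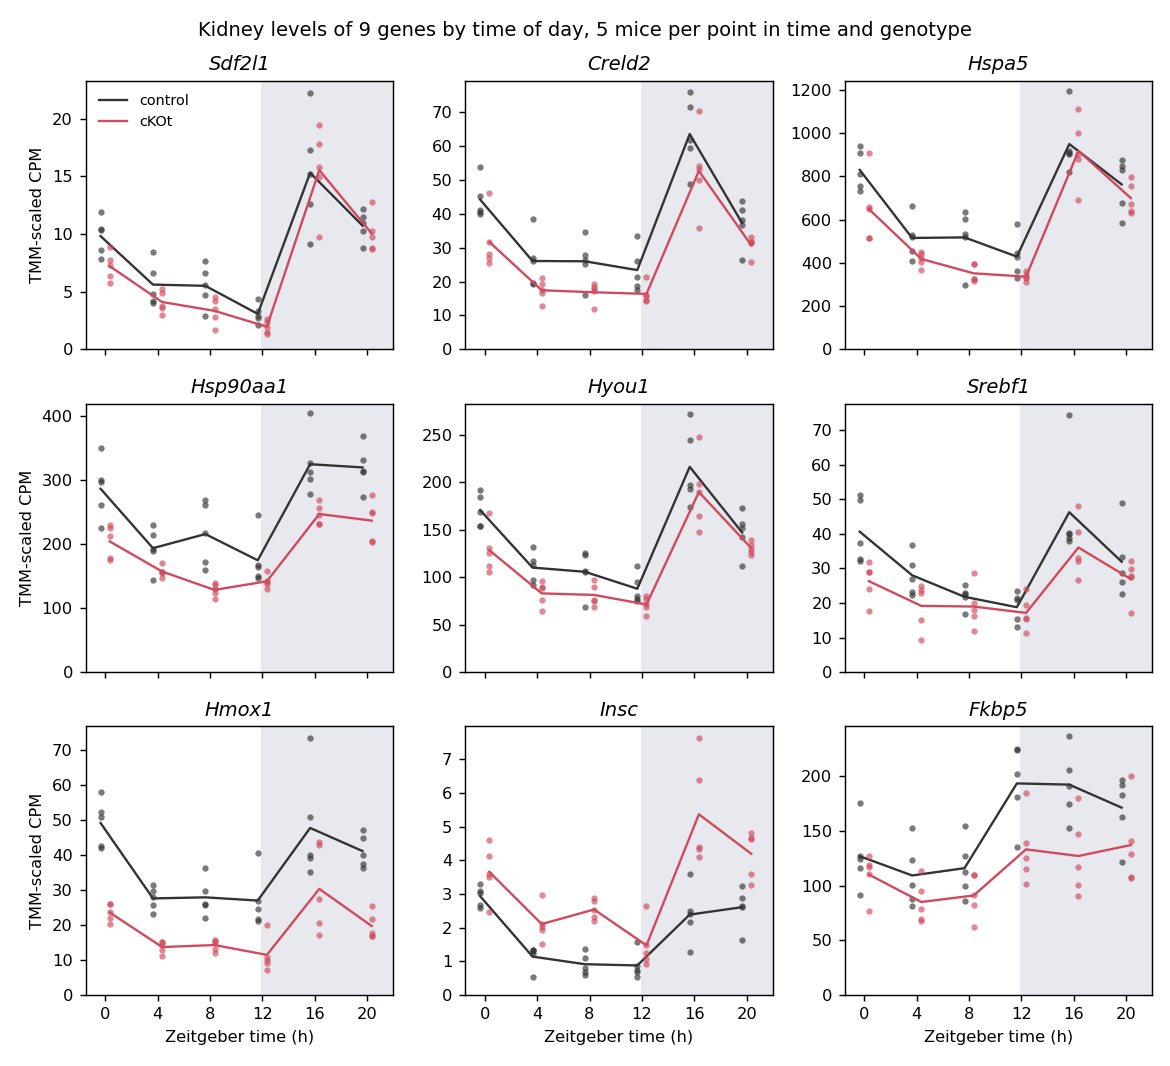
TMM-scaled CPM (vertical axes, from 0) of 9 of the genes at 6 zeitgeber times (horizontal axes, h) in control (black) and cKOt mice (red), with each point 1 mouse, lines through the mean of 5 mice, and the dark phase shaded. Sdf2l1, Creld2, and Hspa5 rise from their lowest time point at ZT12 to their highest at ZT16 in both genotypes, whereas Hmox1 runs lower and Insc higher in cKOt mice.

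The remaining genes were of many kinds. Insc, an adaptor that orients the mitotic spindle, had 0.522, 0.849, 1.57, 0.746 and 0.674 CPM at ZT12 and 3.59, 2.17, 1.26, 2.40 and 2.502 CPM at ZT16 in control mice, with some overlap of the times. In cKOt mice it had 1.49, 1.25, 2.63, 0.925 and 1.06 CPM at ZT12 and 4.40, 6.38, 7.62, 4.10 and 4.33 CPM at ZT16, which did not overlap. The antisense transcript Gm16010 rose from 2.53 to 5.28 CPM at ZT12 to 8.98 to 12.4 CPM at ZT0 in control and from 5.08 to 16.1 CPM to 12.6 to 16.6 CPM in cKOt mice, where 1 mouse at ZT12 had 16.1 CPM and the other 4 at most 5.73 CPM. Acmsd (a decarboxylase that diverts tryptophan from the synthesis of NAD+) was the only one with a mean above 100 CPM and a control amplitude above 1. It rose from 82.9, 109, 83.0, 110.3 and 78.2 CPM at ZT12 to 238, 214, 209, 217 and 164 CPM at ZT0 in control mice and from 79.1, 79.0, 116, 75.2 and 102 CPM to 238, 161, 169.9, 177 and 248 CPM in cKOt mice, and the genotypes overlapped at all 6 time points. Banp (a nuclear DNA-binding protein) was highest at ZT0, with 22.0, 17.5, 21.7, 23.7 and 18.7 CPM in control and 22.3, 16.9, 21.9, 22.5 and 16.3 CPM in cKOt mice, against 3.65 to 6.21 CPM and 4.93 to 13.1 CPM at ZT8. Mmp15 (a membrane-bound matrix metalloproteinase) peaked at ZT23.2 and ZT22.9 and rose from 1.205 to 2.04 CPM at ZT12 to 3.82 to 5.91 CPM at ZT0 in control and from 1.05 to 2.03 CPM to 3.96 to 5.33 CPM in cKOt mice. Hist1h2be (a histone H2B gene) rose from 0.899 to 1.53 CPM at ZT12 to 2.08 to 4.14 CPM at ZT0 in control mice.

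The latest and earliest peaks belonged to genes of other kinds. Tril (a coreceptor of Toll-like receptors), Tdrd5 (a Tudor domain protein), Vgll3 (a cofactor of TEAD factors), and Pcdh12 (a protocadherin of endothelium) peaked in control mice between ZT0.65 and ZT1.45, and the shift in cKOt mice was from -1.37 h to -0.92 h. Fkbp5, which is induced by glucocorticoids and was the 1 gene of the 39 among 20 listed for these hormones, had the earliest control peak (ZT15.9, in cKOt mice ZT17.1) and was already high at ZT12, with 202, 224, 225, 181 and 135 CPM in control and 102, 139, 115, 185 and 125 CPM in cKOt mice. Gldc, which cleaves glycine, peaked at ZT17.9 and ZT18.4. None of 20 listed clock genes and none of the markers of kidney cell types was among the 39. For the clock genes the rule largely set this, as it asked for an amplitude kept in cKOt mice. Their median amplitude was 1.84 in control and 0.43 in cKOt mice. Of the motifs of clock factors, CACGTG (E-box) was found in 3 of 30 genes (Calr, Fkbp5, and Hsph1), compared with 8.09% of all genes, TTANGTAA (D-box) in 1 (2.72%), and TAGGTCA (ROR element) in none (2.97%). TGACGTCA, a cyclic AMP response element, was found in 1 gene (Mkks, 2.03% of all genes), ACANNNTGT, the core of a glucocorticoid response element, in none (7.9%), and the CArG box in 1 (0610031O16Rik, 1.81%).

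The rule used the mean level only as a minimum of 2 CPM over both genotypes together. The mean level over the day was then compared between genotypes. With edgeR's quasi-likelihood test (2 RUVs factors, Benjamini-Hochberg over 15546 genes, threshold 0.05), 21 of the 39 genes were lower in cKOt mice, compared with 23.2% of all genes, 4 were higher (26.8% of all genes), and 14 did not pass. The median log2 fold change was -0.18 over the 39 genes and 0.01 over all genes. The 69 genes that peaked outside the window gave 19 lower and 24 higher, with a median of 0.03. Scaling by total gene counts in place of TMM, which moved the median of all genes by 0.08, left 16 of the 39 genes lower and put 9 higher, compared with 13.1% and 49.6% of all genes under that scaling. The leukocyte markers were lower in cKOt mice as well: 7 of the 7 tested passed the same test, with summed levels of 154 to 306 CPM (median 215) in control and 114 to 211 CPM (median 171) in cKOt mice. Of the fibroblast and smooth muscle markers 7 of 9 were lower (medians of 292 and 247 CPM), and of the endothelial markers 7 of 8. Markers of the tubule went both ways. Of those of the proximal tubule, 6 of 10 were lower and 3 higher, and their summed level had a median of 43894 CPM in control mice and of 39981 CPM in cKOt mice. For the thick ascending limb 1 of 6 was lower and 3 higher, for the collecting duct 2 of 8 were lower and 5 higher, and for tubule injury 2 of 6 were lower and 2 higher. Of the markers of the distal convoluted tubule 3 of 4 were higher, and of the podocyte markers 1 of 6, and the others did not pass. Of the red blood cell markers 2 were tested, and neither passed in edgeR or had an unadjusted p below 0.05. No marker was at 0 in all 60 mice, and none is among the 39 genes. Their part in the result was not tested.

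The largest decrease was that of Hmox1, which encodes heme oxygenase, the enzyme that degrades heme. It ranged from 21.2 to 73.5 (median 36.3) CPM over 30 control and from 7.01 to 43.7 (median 16.8) CPM over 30 cKOt mice. The difference was -0.98 ± 0.08 (SE) on the log2 scale (edgeR, adjusted p = 3.32e-16), with all cKOt mice below all control mice at 5 of 6 time points, the exception being ZT16. The antisense transcripts 0610031O16Rik and Gm42067 followed, with 4.50 to 19.6 (median 8.93) CPM against 2.53 to 10.6 (median 5.61) CPM and 1.88 to 6.26 (median 3.26) CPM against 1.21 to 3.13 (median 2.19) CPM. Their differences were -0.75 ± 0.08 (SE) (edgeR, adjusted p = 2.72e-12) and -0.68 ± 0.08 (SE) (edgeR, adjusted p = 4.43e-11), and Gm42067 did not overlap between genotypes at 4 time points. Such a separation at 3 or more time points was found in 2 genes downward (3.42% of all genes) and 2 upward (3.3%).

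Chaperones and Srebf1 were lower by smaller amounts. Hsph1 differed by -0.66 ± 0.07 (SE) (edgeR, adjusted p = 1.10e-11), Hsp90aa1 by -0.45 ± 0.05 (SE) (edgeR, adjusted p = 1.86e-11), and Srebf1 by -0.32 ± 0.05 (SE) (edgeR, adjusted p = 2.16e-06) on the log2 scale. Of the 7 ER genes, 6 passed, from -0.45 ± 0.07 (SE) for Creld2 to -0.19 ± 0.04 for Hsp90b1, and Pdia6 did not (-0.04 ± 0.03; edgeR, adjusted p = 0.333). For Hspa5, the differences at single time points ran from -0.54 at ZT8 to -0.07 at ZT16, and for Sdf2l1 from -0.76 at ZT8 to -0.02 at ZT16. The genotypes thus lay closest at the highest time point in Hspa5 and Sdf2l1. In Creld2 and Hyou1 they lay closest at ZT20 (-0.23 and -0.12), and in Calr at ZT4 (-0.10). Such differences between time points restate the amplitudes in part, which the rule used, and are a description only. Of all 29 listed ER genes, 24 were lower, none higher, and 5 did not pass, and of 26 listed heat shock chaperones 21 were lower, none higher, and 5 did not pass, with medians of -0.17 and -0.21. For these and the lists below, the shares over all genes were 23.2% lower and 26.8% higher. No gene of either list was higher at an unadjusted p below 0.05 in edgeR or called higher by limma or DESeq2. With total gene counts, these lists gave 14 lower with 2 higher and 14 lower with 3 higher, and Hsp90b1 no longer passed (-0.08; edgeR, adjusted p = 0.105). Of 14 listed genes of fatty acid synthesis, 6 were lower (Srebf1 among them) and 2 higher, while Scd2 gave -0.02 ± 0.04 (SE) (edgeR, adjusted p = 0.623). Fkbp5 differed by -0.40 ± 0.07 (SE) (edgeR, adjusted p = 9.54e-06), in a list of 19 tested glucocorticoid-responsive genes with 8 lower and 5 higher. The lists of iron and heme and of NRF2 targets, both of which hold Hmox1, gave 8 lower with 1 higher of 13 and 9 lower with 2 higher of 13. Of 407 zinc-finger genes, 159 were higher and 29 lower, and the 1 among the 39, Zbtb40, did not pass (-0.09 ± 0.06 (SE); edgeR, adjusted p = 0.197). With total gene counts, the counts of lower against higher were 5 and 3 for fatty acids, 6 and 4 for glucocorticoids, 6 and 4 for iron and heme, 7 and 2 for NRF2, and 10 and 286 for zinc fingers. Under that scaling, 13.1% of all genes were lower and 49.6% higher.

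The 4 genes that were higher in cKOt mice were Insc, Gm16010, Spef1, and Tdrd5. Insc was the strongest: it ranged from 0.518 to 3.59 (median 1.47) CPM in control and from 0.925 to 7.62 (median 2.92) CPM in cKOt mice. The difference was 0.90 ± 0.10 (SE) (edgeR, adjusted p = 1.10e-10), and all cKOt mice lay above all control mice at 4 of 6 time points. The control mean of Insc (1.81 CPM) lay below the minimum of 2 CPM, whereas the cKOt mean was 3.22 CPM. Insc met the rule on its pooled mean (2.54 CPM), so its choice was not independent of the higher cKOt level. Gm16010 went from 2.53 to 15.3 (median 8.24) CPM to 5.08 to 19.7 (median 14.7) CPM, with a difference of 0.72 ± 0.09 (SE) (edgeR, adjusted p = 2.67e-09) and no overlap at 3 time points. Spef1, a microtubule-binding protein of cilia that shares 4886 bases with Cenpb on the same strand, and Tdrd5 differed by 0.25 ± 0.05 (SE) (edgeR, adjusted p = 6.65e-05) and 0.20 ± 0.06 (SE) (edgeR, adjusted p = 0.00401). Acmsd gave 0.09 ± 0.06 (SE) (edgeR, adjusted p = 0.223), Banp 0.17 ± 0.09 (SE) (adjusted p = 0.121, edgeR), and Hist1h2be -0.18 ± 0.10 (SE) (adjusted p = 0.107, edgeR). Mmp15 passed narrowly at -0.16 ± 0.07 (SE) (edgeR, adjusted p = 0.0432), and not without replicate 1 (adjusted p = 0.209) or 4 (0.251). Tdrd5 did not pass without replicate 5 (edgeR, adjusted p = 0.0647).

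The other genes that were lower were Ahsa2, Chordc1, Itga10 (an integrin chain), Vgll3, Gm15348, and Pcdh12, with log2 fold changes from -0.32 for Ahsa2 to -0.16 for Pcdh12. The calls of Itga10 without replicate 2, Gm15348 without replicate 3, Vgll3 without replicate 1 or 2, and Pcdh12 without replicate 1 were lost (edgeR, adjusted p = 0.0824, 0.0579, 0.149, 0.242, and 0.0563). Beside Pdia6, Scd2, Zbtb40, Acmsd, Banp, and Hist1h2be, the genes that did not pass were Adamts1 (a secreted metalloproteinase), Tril, Mkks, Unc5c (a netrin receptor), Kbtbd8 (an adaptor of a ubiquitin ligase), Dleu7, P4ha1, and Gldc, with log2 fold changes from -0.10 for Adamts1 to 0.10 for Gldc.

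**Figure D3:**
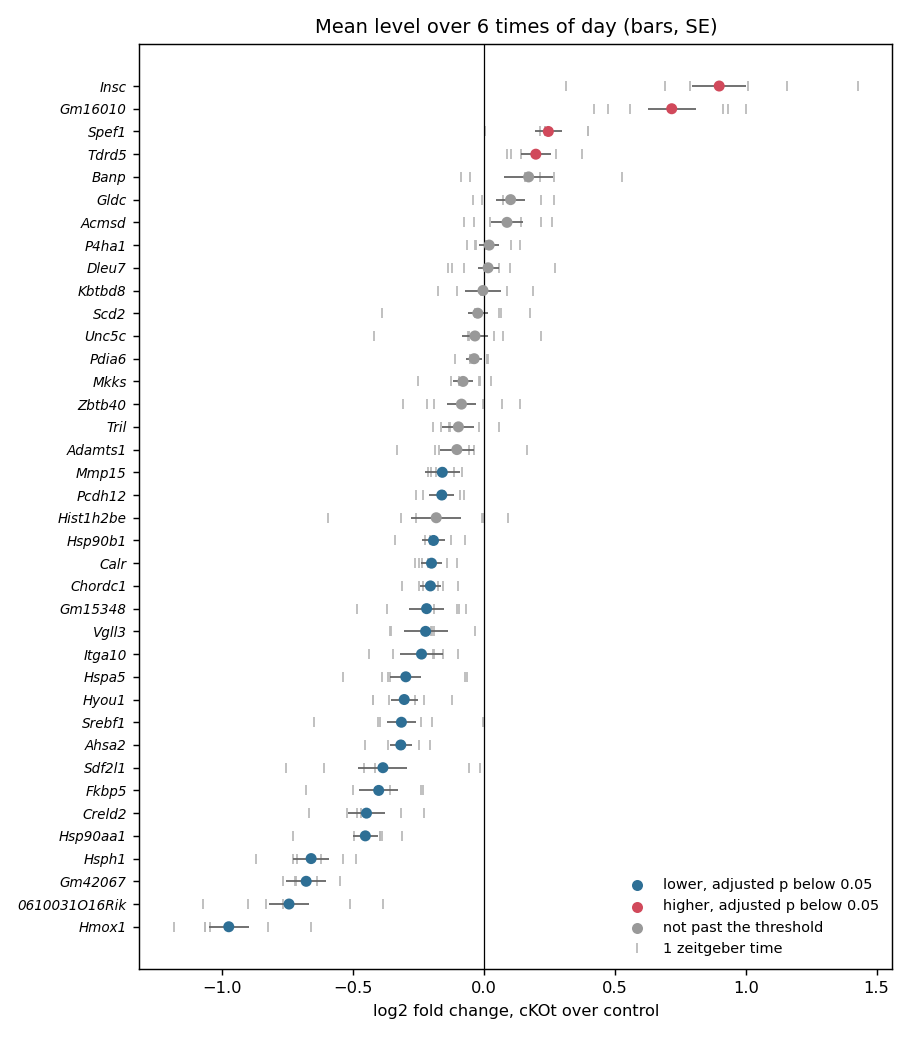
Log2 fold change of the mean level, cKOt over control (horizontal axis), of 38 of the genes with its SE, and the value at each of 6 time points as a grey tick. Blue points passed the edgeR test as lower (20 genes), red points as higher (4 genes), and grey points did not pass (14 genes), and Hmox1 and Insc mark the ends.

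Mice of the same group differed from each other, and these differences were shared among the chaperones. The deviation of each mouse from the mean of its group on log2(CPM + 0.5) was correlated with that of Hspa5 over 60 mice, for each of 12550 other genes with at least 2 CPM, with 100000 permutations of mice within groups. Hspa5 and this comparison were chosen after the values had been seen. The RUVs factors of the genotype test are estimated from such deviations within groups and were not removed here. Whether the deviations arose in the mice or in the handling of the samples was not tested. At an adjusted p of Pearson's r below 0.05, 12 of the other 38 genes correlated positively and none negatively, compared with 0.876% and 0.175% of all genes, 1 was negative at an unadjusted p below 0.05, and the median r was 0.37 for the 38 genes and -0.02 for all genes. For Hsp90b1, r was 0.84 and Spearman's rho 0.84, both with p = 1e-05, the smallest these permutations can give (adjusted p = 0.00369 and 0.00314). For Hsp90aa1 of the cytosol, r was 0.72 and rho 0.71, with the same permutation p values and adjusted p values as for Hsp90b1. The 12 genes were the other 6 ER genes, the 4 cytosolic chaperones, P4ha1 (a subunit of the ER enzyme that hydroxylates collagen), and Mkks (a chaperonin-like protein of cilia), with r from 0.57 to 0.84, rho from 0.58 to 0.84, and adjusted permutation p from 0.00314 to 0.00784 over both measures. Without the 2 mice farthest from the median of Hspa5, r ranged from 0.52 to 0.81. Within each of the 6 library batches r was positive for 11 of the 12 genes, and for Hsph1 it ranged from -0.23 to 0.93. Among the genes of fatty acid synthesis, r was -0.17 for Scd2 (rho -0.15; adjusted permutation p = 0.523 and 0.545) and -0.32 for Srebf1 (rho -0.37; adjusted permutation p = 0.164 and 0.112).

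**Figure D4:**
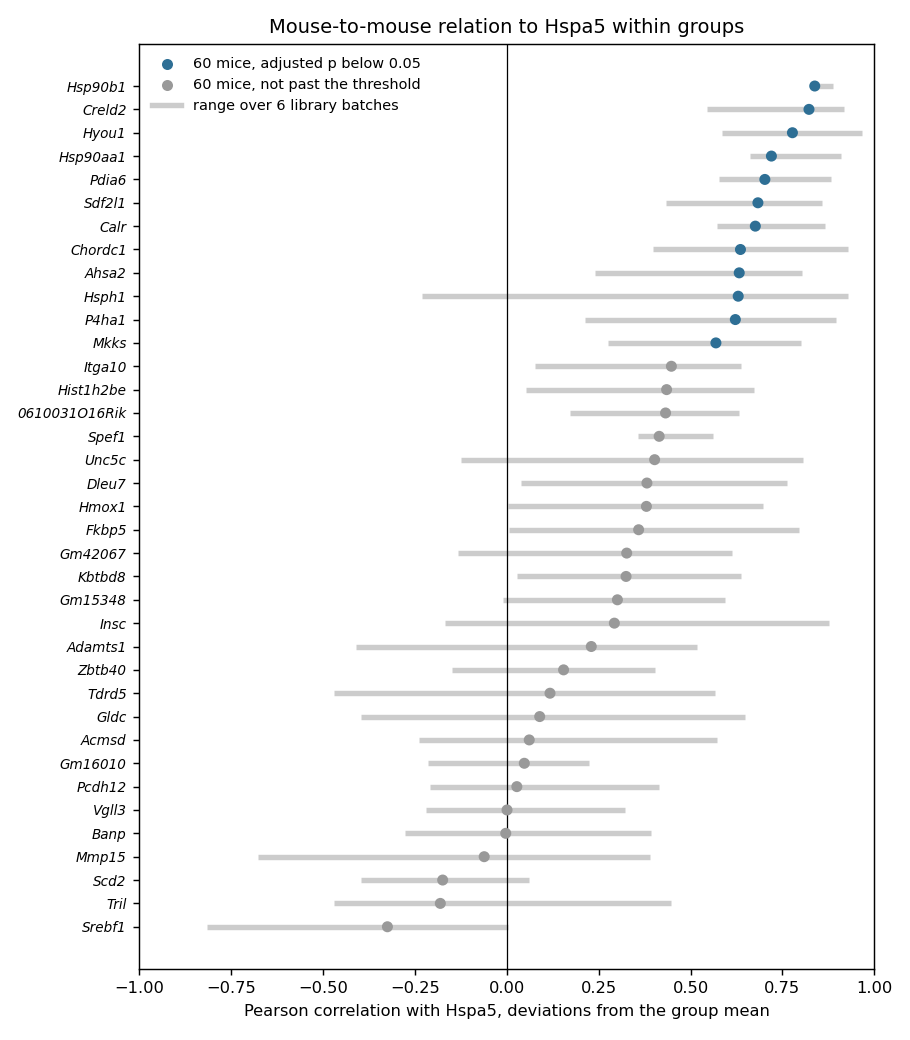
Pearson correlation (horizontal axis) between the deviations of Hspa5 and of 37 other genes from their group means over 60 mice (points), with the range over the 6 library batches as a grey bar. Blue points passed the threshold and are the 12 genes named, from Mkks (0.57) to Hsp90b1 (0.84), whereas Srebf1 lies at the lower end.

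The genes that carry the ER stress response element were chosen by sequence, although the element was searched after the sequences of the 39 genes had been seen. Of the 37, 33 were counted and 18 had a mean of at least 2 CPM, including the 5 of the 39 genes. Their control peak fell between ZT14 and ZT2 in 13 of 18 (72.2%), compared with 44.0% of all 12551 genes, and their median control amplitude was 0.46, compared with 0.18. Without the 5 genes chosen for their nighttime peak, 8 of 13 (61.5%) peaked in the window, the median control amplitude was 0.27, and 5 were lower and 2 higher in cKOt mice. Outside the 39 genes, Syvn1 (a ubiquitin ligase of ER-associated degradation), Dnajc3 (an inhibitor of the kinase PERK), Canx (calnexin, a glycoprotein chaperone), and Alg12 (a mannosyltransferase of N-glycosylation) peaked between ZT19.9 and ZT21.3 in control and ZT19.0 and ZT21.0 in cKOt mice, with amplitudes of 0.25 to 0.50 and 0.32 to 0.69. Acnat2, an acyltransferase, peaked at ZT20.0 with an amplitude of 0.90 in control and 0.35 in cKOt mice and was higher in cKOt mice by 0.65 ± 0.05 (SE) on the log2 scale (edgeR, adjusted p = 4.16e-15). Of the 18, 9 were lower in cKOt mice and 2 higher, with a median of -0.08. Among all 12551 genes, 3140 were lower and 3750 higher. The difference was -0.18 ± 0.03 (SE; edgeR, adjusted p = 2.08e-05) for Syvn1 and -0.15 ± 0.02 (SE; edgeR, adjusted p = 9.97e-09) for Canx. Xlr3b, Adcy3, Zfp57, Acacb, and Pan2 peaked outside the window. The R2 of the cosine in control mice was below the limit of 0.3 in these 5 genes and in 4 of the 8 inside the window (Syvn1 and Alg12 with 0.24 each, Spats2l with 0.16, and Xlr3a with 0.01).

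**Figure D5:**
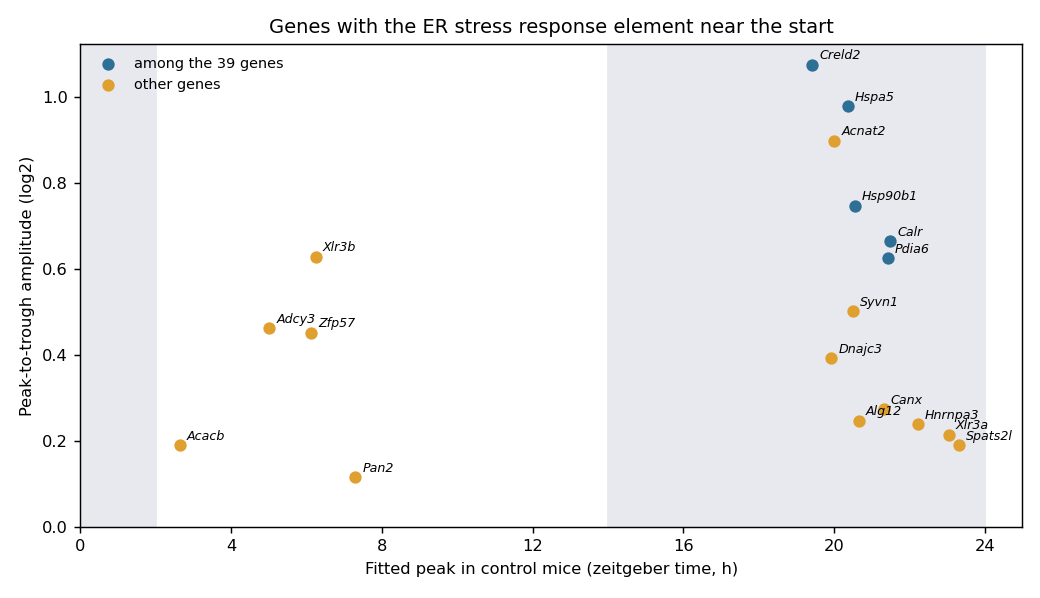
Peak-to-trough amplitude (log2, vertical axis) against fitted peak time in control mice (horizontal axis, h) of the 18 genes with the ER stress response element near their start and at least 2 CPM, with the window from ZT14 to ZT2 shaded. The 5 genes of the 39 are blue and were chosen for a control peak in the window. In all, 13 of the 18 lie in the window, and 8 of 13 without these 5 genes, 4 of the 8 with a control R2 below 0.3.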

How the data were processed

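RNA-seq of 60 mouse kidneys was analysed. The authors deposited raw counts per gene for each mouse, made, per the submitters' processing notes, with bcl2fastq, cutadapt 1.8, STAR 2.5.3a, and HTSeq 0.9.1 on GRCm38, and the library kit was stranded. Groups were taken from the labels, and no 2 libraries were identical. Lines of the files that name no gene (5 in each) were left out of the library sizes, and reads without a feature made up 7.17% to 10.6% of each library.

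The members and the gene lists were chosen with earlier results of these data known. The genes named with full values were the 12 of largest control amplitude, up to 6 called in each direction with 1 sign at all time points (4 existed upward), list members, the genes next to each limit, and Arntl. Counts cover all 39 genes, and 1 of them is not reported here by name. Hspa5 as a reference for correlations and the ER stress response element were chosen after the values or sequences had been seen.

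Cosines of 24 h were fitted to log2(CPM + 0.5) by least squares. Genotypes were compared with edgeR 4.0.16 (R 4.3.3; quasi-likelihood test, TMM, 2 RUVs factors, at least 1 CPM in 1 sample, 15546 genes), as the mean over time points of cKOt minus control. On simulated counts (15140 genes), 92% of changes of 0.3 and 100% of changes of 0.6 on the log2 scale were recovered, with 0.0402% of unchanged genes called. The simulated counts were drawn independently for each gene and mouse, with few genes changed and no batch or other shared variation. In the real data 50.0% of genes passed and deviations were shared between genes, so these rates may not carry over. Promoter sequences were from RefSeq (GRCm38.p6), held for 30 of the 39 genes. limma 3.58.1 and DESeq2 1.42.0, other filters, scalings, covariates, and left-out replicates were tried as alternatives.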

Additional observations from a re-analysis of the deposited data

Results flagged for a closer look

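Among the 12 genes of largest control amplitude, 13 of 144 groups of 5 mice held a mouse far from the others (gap to the nearest mouse over the range of the group above 0.71), and among all 39 genes 25 of 468 did. Chance flags about 1 in 20 groups when mice have not been selected by their distance from the others. In the values that follow in this paragraph, highest and lowest refer to the group of 5 mice, and not to all mice. Creld2 had 3 such groups, with 11.78 CPM as the lowest cKOt mouse at ZT8, 21.43 CPM as the highest at ZT12, and 25.69 CPM as the lowest at ZT20. Hspa5 reached 1195 CPM in 1 control mouse at ZT16. Gm16010 was highest at 9.179 CPM in a control mouse at ZT8 and at 16.12 CPM in a cKOt mouse at ZT12. Mmp15 was highest at 3.915 CPM in a control mouse at ZT16 and at 5.332 CPM in a cKOt mouse at ZT0. The antisense transcript 0610031O16Rik was lowest at 5.001 CPM in a control mouse at ZT12 and highest at 6.761 CPM in a cKOt mouse at ZT8. Insc was lowest at 0.5175 CPM in a control mouse at ZT4, Acmsd highest at 225.8 CPM in a control mouse at ZT4, and Srebf1 highest at 74.44 CPM in a control mouse at ZT16.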

How the results depend on the processing

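The number of genes meeting the rule lay between 30 and 51 under other scalings, pseudocounts, and filters, and between 25 and 40 without 1 replicate, the 25 being without replicate 5, with 21 of them among the 39. In all 12 alternatives 11 genes were kept. The calls and signs of 18 of the 25 called genes held in all 15 alternatives. Scaling by total gene counts, an alternative chosen after seeing the data, gave 7707 genes higher and 2032 lower, with 9 of the 39 higher, and a fold change above 1.2 left 1228 higher and 1269 lower, with 2 and 13 of the 39. The log2 fold changes that turned their sign belonged to genes that had not passed. With total gene counts they were 0.0756 for Unc5c, 0.0428 for Scd2, 0.0224 for Mkks, 0.121 for Kbtbd8, and 0.0572 for Pdia6. Kbtbd8 gave 0.0193 with library batch in place of RUVs factors, 0.000493 with limma, 0.0250 without RUVs factors, and 0.00693 without the sample marked in the labels. Without 1 replicate, the values ranged from -0.0837 to 0.0181 for Unc5c, -0.0181 to 0.0319 for Dleu7, -0.0792 to 0.0350 for Kbtbd8, and -0.0207 to 0.0441 for P4ha1. The cause was not tested. With the replicate number as a replicate block, 4144 genes were higher and 3590 lower, and 4 and 21 of the 39. Residuals of mice with the same number correlated by a mean of 0.00997 over 330 pairs and those with other numbers by -0.00229 over 1320 pairs. Single pairs with the same number ran from -0.63 to 0.60, so the mean cannot decide whether these mice shared any handling. Within a library batch the mean was 0.0494 over 270 pairs, and across batches -0.00947 over 1380 pairs. The main test had RUVs factors and no term for batch.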
